A study of Mus musculus with 4 samples.

Results

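Macrophages show T cells and tumour cells a set of surface proteins that raise or lower their response, and 10 genes of this set were followed here: Cd274, Pdcd1lg2, Cd80, Cd86, Icosl, Cd276, Havcr2, Lgals9, Cd47 and Sirpa. They were taken by gene symbol from the count table, where all 10 were found among the 21878 genes listed and all 10 passed the filter on low counts that left 12494 genes for testing. The material was RNA from C57BL/6 bone marrow-derived macrophages kept for 48 h in coculture with MC38, a mouse colon adenocarcinoma cell line. 2 libraries carry the genotype label wild type (WT) and 2 the label anti-Act1, from mice aged 8 weeks. Anti-Act1 mice are described by the study as a macrophage-restricted knockdown of Act1, the adaptor of the IL-17 receptor encoded by Traf3ip2, and what drives the knockdown is not given in the sources used here. The study's methods give a wider age range and a figure legend gives a shorter coculture, and 1 passage of the methods speaks of macrophages from mice that also carry the Apc Min allele, which the labels do not name. Tumour cells and macrophages were held apart by a porous insert, both groups were cocultured, and no macrophages kept alone are among the 4 libraries, so that the values describe anti-Act1 against WT under coculture and not an effect of the tumour cells.

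PD-L1 (Cd274) and PD-L2 (Pdcd1lg2) bind PD-1 on T cells and dampen T cell receptor signalling. CD80 and CD86 give the activating second signal through CD28 and are also the ligands of the inhibitory receptor CTLA-4, whereas ICOS ligand (Icosl) binds ICOS and B7-H3 (Cd276) is a relative with a receptor that is not settled. TIM-3 (Havcr2) is an inhibitory receptor found on T cells and on myeloid cells, and galectin-9 (Lgals9) is one of its ligands. CD47 is the signal by which cells protect themselves from being eaten, read by SIRPα (Sirpa), the inhibitory receptor of the phagocyte. Interferon signalling, in which IRF1 takes part, is a well known inducer of PD-L1 in macrophages.

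Of the 10 genes, Cd274, Lgals9 and Cd47 were higher and Sirpa was lower with the anti-Act1 label, and 6 did not pass the test (edgeR quasi-likelihood test, adjusted p under 0.05 over all genes tested). Among all tested genes 20.7% were called, 10.9% as higher and 9.76% as lower, so that 4 of 10 is a larger share than the background but a small number. Cd274 was the 1 gene of the set whose log2 fold change was past 0.5 in size, a size that 1379 of the tested genes (11.0%) had. As a set, the 10 genes had a median of -0.06 on the log2 fold change scale, beside 0.00 for all tested genes.

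The stretch of 250 bases before the annotated start is printed for the 3 genes that rose and for Pdcd1lg2, the neighbour of Cd274 that encodes the other PD-1 ligand and did not pass the test, to show which letters of interferon and inflammatory motifs lie there. The sequences are from RefSeq on build GRCm38.p6 and run 5′ to 3′ on the gene's own strand. They lie at chr19:29367188-29367437 on the plus strand for Cd274, chr19:29410669-29410918 on the plus strand for Pdcd1lg2, chr11:78984925-78985174 on the minus strand for Lgals9 and chr16:49855404-49855653 on the plus strand for Cd47. Capitals mark the matches to the motifs searched. The annotation GENCODE M21 starts Cd47 at chr16:49800533, so that the printed RefSeq window lies inside its gene span. A second RefSeq window of Cd47, at chr16:49855411-49855660, is not printed and also held no match.
Cd274: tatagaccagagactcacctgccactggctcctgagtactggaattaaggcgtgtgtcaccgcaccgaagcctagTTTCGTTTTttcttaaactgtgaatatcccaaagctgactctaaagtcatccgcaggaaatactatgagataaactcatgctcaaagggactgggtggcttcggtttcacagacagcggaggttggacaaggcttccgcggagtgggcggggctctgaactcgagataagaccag
Pdcd1lg2: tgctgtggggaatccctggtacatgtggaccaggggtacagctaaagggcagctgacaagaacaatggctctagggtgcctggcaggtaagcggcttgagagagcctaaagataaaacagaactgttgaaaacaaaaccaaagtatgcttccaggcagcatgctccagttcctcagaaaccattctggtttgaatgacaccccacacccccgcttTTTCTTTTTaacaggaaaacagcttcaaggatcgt
Lgals9: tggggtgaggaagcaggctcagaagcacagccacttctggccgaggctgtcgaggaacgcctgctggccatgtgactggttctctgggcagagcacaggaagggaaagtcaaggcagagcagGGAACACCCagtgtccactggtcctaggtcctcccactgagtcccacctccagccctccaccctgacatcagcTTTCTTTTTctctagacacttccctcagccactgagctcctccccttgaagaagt
Cd47: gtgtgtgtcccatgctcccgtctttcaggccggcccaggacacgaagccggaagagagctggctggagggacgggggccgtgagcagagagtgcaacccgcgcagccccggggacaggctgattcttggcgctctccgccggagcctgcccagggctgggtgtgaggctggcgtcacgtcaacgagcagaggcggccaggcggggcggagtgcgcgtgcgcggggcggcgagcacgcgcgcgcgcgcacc

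4 motifs were searched on both strands: the STAT element TTCNNNGAA, the core of the interferon-stimulated response element bound by IRF factors AAANNGAAA, the NF-κB element GGGNNTTCC and the AP-1 element TGANTCA. Of the 10 genes, 8 had a promoter entry, and Cd86 and Sirpa had none. The IRF core was found 175 bases before the start of Cd274, as TTTCGTTTT on the printed strand, 35 bases before that of Pdcd1lg2 and 55 bases before that of Lgals9, and 9.37% of all 32851 promoter windows hold it. Lgals9 also had the NF-κB letters 128 bases before its start, which 4.98% of windows hold. Cd80 and Havcr2 had the AP-1 letters, found in 6.75% of windows, at 42 and 200 bases before the RefSeq start. The RefSeq windows of Cd80 and Cd276 lie inside their GENCODE gene spans, and those of Lgals9 and Icosl overlap theirs in part. The STAT element, in 7.02% of all windows, was in the window of none of the 8 genes, and the windows of Cd47, Icosl and Cd276 held none of the 4 motifs. With a G before it, the core was found in Lgals9 alone of the 8 genes, and in 2.98% of all windows. Cd274 and Pdcd1lg2 shared the core without that G, and their letters at its open positions differed. Of this pair only Cd274 passed the test, and the difference between their changes was not resolved. A match of letters is a description of the window and not a measured binding site.

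The libraries held 55435063 to 75062945 counts. A count of 0 thus allows up to 0.0395 to 0.0549 CPM, the counts scaled to library size, if each count is independent. Traf3ip2 itself was not reduced under the anti-Act1 label. It was at 6.98 and 7.54 CPM in WT and at 9.63 and 7.84 CPM in anti-Act1, a log2 fold change of 0.27 (SE 0.12, adjusted p = 0.117), and the directions below are given as the labels have them. The use of strand in the counting is not given. Whether an antisense transcript of this gene was present and counted with it was not tested. The summed level of 4 Y-linked genes was 228 and 246 CPM in WT but 0.0162 and 0 CPM in anti-Act1, so that the sex of the mice and the genotype label cannot be told apart in any result below. The 8 macrophage markers reported here summed to 24570 to 26254 CPM in the 4 libraries, with 1 called higher (Cd14) and 2 called lower (Itgam, Mertk). Epithelial markers, which MC38 cells could bring, summed to 0.128 to 0.464 CPM with 4 of 8 at 0 in all libraries, and of the markers of dendritic cells (5 of 7 tested, summed to 4.26 to 5.31 CPM) and B cells (2 of 5 tested, summed to 2.91 to 4.03 CPM) none was called. The 6 fibroblast markers were all too low to be tested, at a sum of 0.162 to 0.476 CPM. Of 7 neutrophil markers, which summed to 6.57 to 7.43 CPM, 1 was called higher (S100a8) and 2 lower (S100a9, Ltf), and of 7 cell cycle genes, which summed to 163 to 178 CPM, 2 were lower (Top2a, Mcm5). Their part in the results below was not tested. In bulk RNA a change in the number of cells of a kind and a change in the RNA of each cell cannot be told apart.

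Per length, the 10 genes spanned more than 3 orders of magnitude, from Sirpa at a mean of 447 FPKM (fragments scaled to transcript length and library size) in WT to Pdcd1lg2 at 0.171 FPKM. Lgals9 and Cd274 stood next at 126 and 125 FPKM in WT, with ranges that overlapped, so that their order in WT is not settled. Cd47 followed at 102 FPKM. Below these came Cd86 (24.8 FPKM), Cd80 (18.3 FPKM), Havcr2 (14.6 FPKM), Cd276 (3.44 FPKM) and Icosl (2.41 FPKM), with neighbours whose WT values did not overlap. In the libraries labelled anti-Act1 the order was the same except that Cd274 stood above Lgals9, at 184 against 140 FPKM without overlap.

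**Figure D1:**
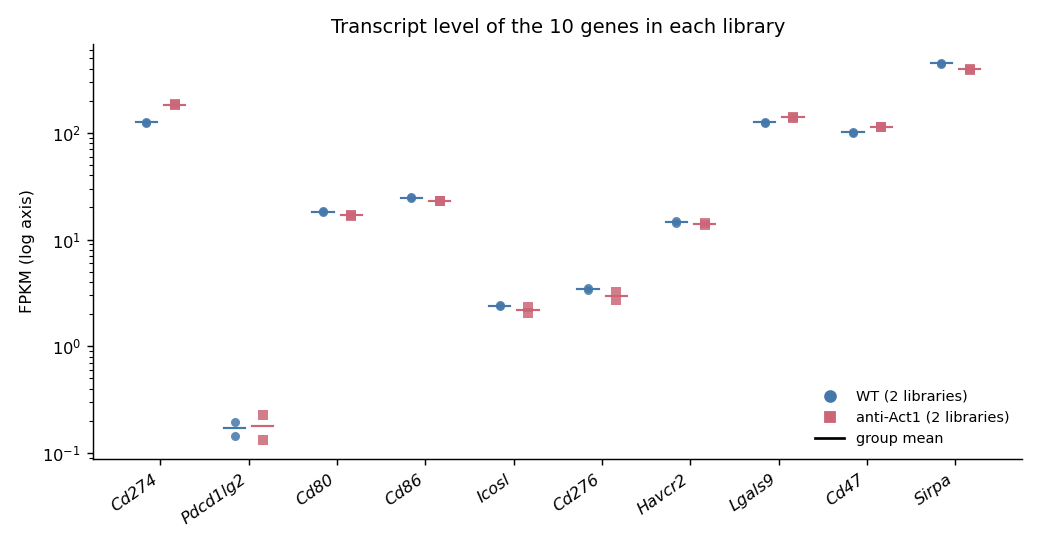
FPKM of the 10 genes on a log axis in the 2 WT libraries (circles) and the 2 libraries labelled anti-Act1 (squares), with the group means as lines. Sirpa is at the top in all 4 libraries, Pdcd1lg2 lies below 1 FPKM in all 4, and the groups of Cd274 are visibly apart.

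The PD-1 ligands stood far apart in level, and of the pair only Cd274 passed the test, while the difference between their changes was not resolved. Cd274 was at 449 and 457 CPM in the WT libraries, against 674 and 678 CPM with the anti-Act1 label. Both anti-Act1 values were above both WT values, and the replicates of a group lay close together beside this gap. The mean rose from 453 ± 5.65 to 676 ± 3.38 CPM (SD, n = 2), a 1.49-fold rise with a 95% interval of 1.39 to 1.60, or 0.58 on the log2 scale (SE 0.05, adjusted p = 4.76e-13). By the size of its p it was the 89th of 12494 genes, and by log2 fold change the 686th from the top. The rise was called under all 13 alternative settings, at 0.55 to 0.59 on the log2 scale. GENCODE M21 places an antisense transcript (AC119228.1) over Cd274, from which its reads cannot be separated without strand.

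Pdcd1lg2 was almost silent, with 32 and 50 reads in WT and 48 and 25 with the anti-Act1 label. These are 0.495, 0.659, 0.777 and 0.458 CPM, and the groups overlapped. Exact Poisson intervals at 95% cover counting error only and take each count as independent. In the same order they were 0.339 to 0.699, 0.489 to 0.868, 0.573 to 1.03 and 0.296 to 0.676 CPM. They would be too narrow if a fragment was counted more than once, which was not tested. Of the counts from 1 to 20 in a library, 66.4 to 68.2% were even. The log2 fold change was 0.10 (SE 0.41, 95% interval -0.73 to 0.93, adjusted p = 0.904), and at this depth the interval holds both a rise as large as that of Cd274 and a fall. It also has an antisense neighbour (A930007I19Rik). Per length, Cd274 was 850 and 651 times Pdcd1lg2 in WT and 813 and 1391 times in anti-Act1, a ratio whose groups overlapped (exact two-sided permutation test, p = 0.667). The smallest p this test can give here is 0.333, so that it could not have called a difference.

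CD80 and CD86, the ligands of CD28 and CTLA-4, were present at moderate levels and slightly lower with the anti-Act1 label, without passing the test. Cd80 was at 34.4 and 34.8 CPM in WT and 31.7 and 33.1 CPM in anti-Act1, a log2 fold change of -0.09 (SE 0.07, 95% interval -0.23 to 0.04, adjusted p = 0.358). Cd86 was at 63.1 and 62.1 CPM in WT and 58.3 and 59.7 CPM in anti-Act1, also -0.09 (SE 0.06, 95% interval -0.20 to 0.03, adjusted p = 0.329). The groups of both genes were apart, which is common in this table: 57.1% of the tested genes had groups that did not overlap, and 7 of the 10 genes followed here did. The intervals leave out a rise of the size of Cd274 for both. The ratio of Cd80 to Cd86 per length stayed within 0.726 to 0.748 in the 4 libraries (log2 difference -0.01, exact permutation p = 0.667, smallest possible 0.333).

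ICOS ligand and B7-H3 were low. Icosl was at 6.48 and 6.67 CPM in WT and 5.68 and 6.57 CPM in anti-Act1, with overlapping groups and a log2 fold change of -0.10 (SE 0.13, adjusted p = 0.648). Cd276 was at 10.7 and 11.1 CPM in WT and 8.73 and 10.5 CPM in anti-Act1, with a log2 fold change of -0.19 (SE 0.11, 95% interval -0.40 to 0.03, adjusted p = 0.248). The groups of Cd276 did not overlap, yet the anti-Act1 libraries differed more from each other than the higher of them did from WT. The annotation also places Gm10657, a transcript still to be tested experimentally, over Cd276.

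**Figure D2:**
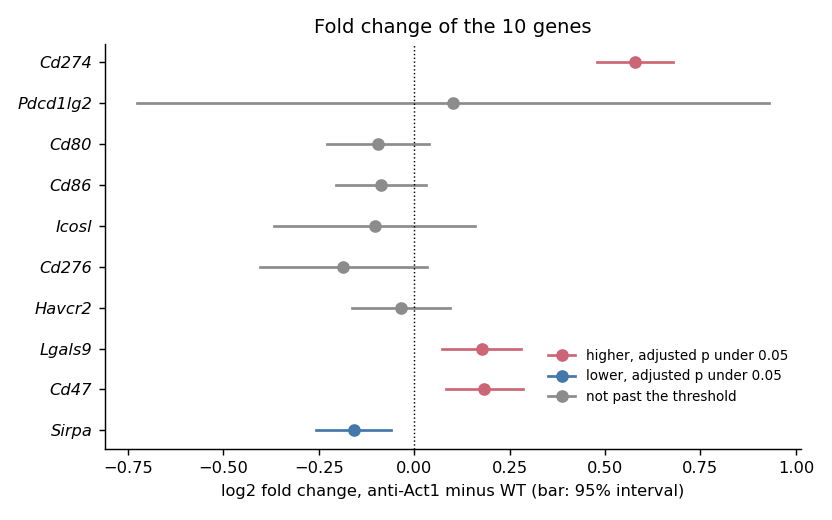
Log2 fold change of each gene, anti-Act1 minus WT, with its 95% interval from the edgeR fit. Cd274 (0.58), Lgals9 and Cd47 (0.18 each) lie right of 0 and Sirpa (-0.16) left of it, and the interval of Pdcd1lg2 is the widest.

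Cd274 rose while the other B7 relatives did not pass the test, and the make-up of the B7 transcripts differed between the groups. Of the summed FPKM of the 6 genes Cd274, Pdcd1lg2, Cd80, Cd86, Icosl and Cd276, Cd274 made up 71.7% and 72.0% in WT and 80.6% and 80.0% in anti-Act1. The share was higher in both anti-Act1 libraries, at 80.3% ± 0.426 against 71.9% ± 0.230 (SD, n = 2). The shares of Cd86 and Cd80 were 14.2% and 10.5% in WT and 10.0% and 7.34% in anti-Act1. The summed FPKM of the 5 others moved little beside this, at 48.9 and 49.2 in WT and 44.4 and 45.9 in anti-Act1. The shares thus mainly restate the rise of Cd274 and are not a further result.

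The ratio of Cd274, the inhibitory ligand, to Cd86, the more abundant CD28 ligand, was 4.98 and 5.15 in WT and 8.09 and 7.97 in anti-Act1. This is a 1.59-fold difference, with both anti-Act1 libraries above both WT libraries. This ratio was added after the values had been seen. With 2 libraries against 2, an exact permutation test cannot give less than p = 0.333, which is the p of this ratio, and 5 such ratios were computed.

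**Figure D3:**
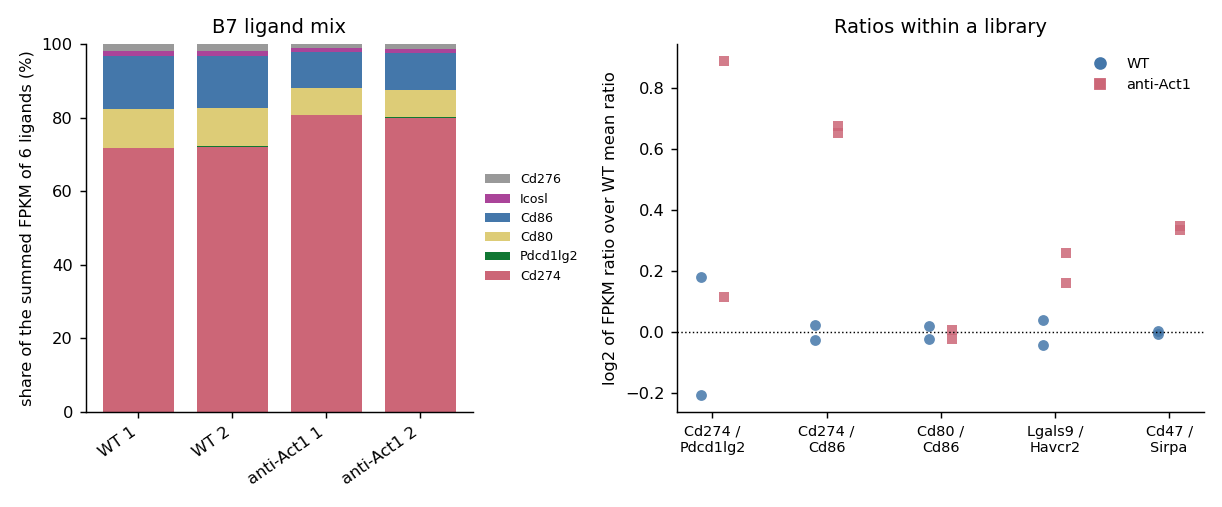
Left, share of each of 6 B7 ligands in their summed FPKM per library, and right, the log2 of 5 FPKM ratios per library relative to the WT mean ratio. Cd274 takes 71.7% and 72.0% of the sum in WT and 80.6% and 80.0% in anti-Act1, and the ratios of Cd274 to Pdcd1lg2 and of Cd80 to Cd86 overlap between groups.

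Of TIM-3 and its ligand, the ligand rose and the receptor did not pass the test. Havcr2 was at 38.7 and 40.2 CPM in WT and 39.1 and 37.9 CPM in anti-Act1, with overlapping groups and a log2 fold change of -0.03 (SE 0.06, 95% interval -0.16 to 0.09, adjusted p = 0.769). Lgals9 was at 194 and 190 CPM in WT and 213 and 221 CPM in anti-Act1. Both anti-Act1 values exceeded both WT values, and the mean rose by 13.0%, from 192 ± 2.76 to 217 ± 5.88 CPM (SD, n = 2), or 0.18 on the log2 scale (SE 0.05, adjusted p = 0.00934). The call did not survive leaving out anti-Act1 replicate 2, the library with the higher value, where the log2 fold change was 0.15 (adjusted p = 0.178). Lgals9 was 8.87 and 8.37 times Havcr2 per length in WT and 9.64 and 10.3 times in anti-Act1 (exact permutation p = 0.333, the smallest possible).

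The CD47 pair moved in opposite directions. Cd47 was at 290 and 294 CPM in WT and 333 and 331 CPM in anti-Act1. It rose by 13.5%, from 292 ± 3.16 to 332 ± 1.82 CPM (SD, n = 2), or 0.18 on the log2 scale (SE 0.05, adjusted p = 0.00563). Without anti-Act1 replicate 1 the log2 fold change was 0.18 with an adjusted p of 0.0737, and without anti-Act1 replicate 2 it was 0.19 with an adjusted p of 0.0556, so that the size held and the call was lost with a single anti-Act1 library.

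Sirpa, the most abundant of the 10 genes, was at 1598 and 1633 CPM in WT and 1459 and 1435 CPM in anti-Act1. Both anti-Act1 values were below both WT values, and the mean fell from 1616 ± 25.1 to 1447 ± 17.2 CPM (SD, n = 2), or -0.16 on the log2 scale (SE 0.05, adjusted p = 0.0146). This was the least stable of the 4 calls. Without WT replicate 2 the log2 fold change was -0.14 (adjusted p = 0.0627), without anti-Act1 replicate 1 it was -0.17 (adjusted p = 0.0628), and without anti-Act1 replicate 2 it was -0.15 (adjusted p = 0.132). With the replicate number as a block it was -0.16 (adjusted p = 0.0638). Reads of its near-copies Sirpb1a (44.8 to 51.0 CPM) and Sirpb1b (52.4 to 56.6 CPM) may be shared with it, and neither passed the test. Per length, Cd47 was 0.229 and 0.227 of Sirpa in WT and 0.287 and 0.290 in anti-Act1, a 1.27-fold difference without overlap (exact permutation p = 0.333).

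**Figure D4:**
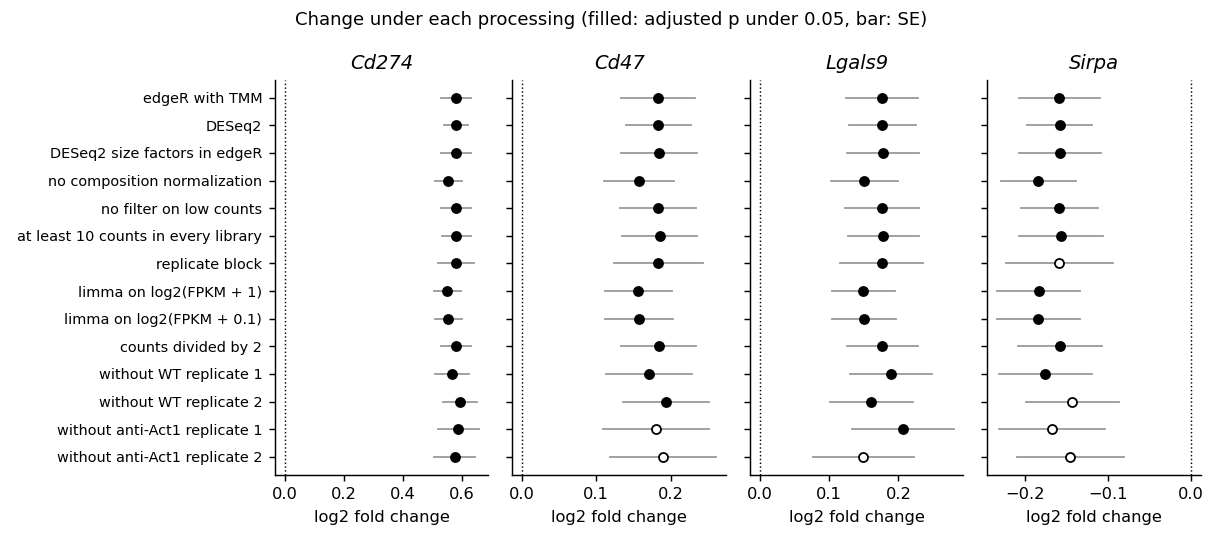
Log2 fold change of the 4 called genes under the edgeR fit and 13 alternatives, with bars for the SE and filled points where the adjusted p was under 0.05. Cd274 is filled throughout, Lgals9 in 12, Cd47 in 11 and Sirpa in 9 of the 13 alternatives, and no point crosses 0.

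Genes around these pairs were read from hand-written lists. Their called counts are to be read beside the 20.7% called among all tested genes. Of the genes known to control PD-L1, 14 are reported here, and of these Myc, a transcription factor, and Ifngr1, a chain of the interferon-γ receptor, fell. Myc was low, at 3.67 and 3.75 CPM in WT and 2.36 and 2.01 CPM in anti-Act1 (-0.76, SE 0.18, adjusted p = 0.00161), and Ifngr1 changed by -0.15 (adjusted p = 0.0230). The call of Ifngr1 was lost without anti-Act1 replicate 1 (adjusted p = 0.142) or replicate 2 (adjusted p = 0.176), at the same size, and with the replicate block (adjusted p = 0.0604). The other 12 genes did not pass the test. Among them were Irf1 (0.13, adjusted p = 0.0972), Stat3 (-0.12, adjusted p = 0.116) and Cmtm6, which keeps PD-L1 at the cell surface (-0.12, adjusted p = 0.103). The median of the 14 genes was 0.03.

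Of the genes beside Cd274 on chromosome 19, 5 were tested and Insl6 passed the test, with a log2 fold change of 0.27 (adjusted p = 0.0457) that was called in 7 of 13 alternatives. Without WT replicate 2 it was 0.16 (adjusted p = 0.416) and without anti-Act1 replicate 1 it was 0.15 (adjusted p = 0.491). Plgrkt, the neighbour before Cd274, was at 0.01 (SE 0.06, adjusted p = 0.970), and Jak2, the kinase of the interferon-γ receptor, was at 0.16 (SE 0.06, adjusted p = 0.0521).

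Among other checkpoint genes, 15 of 22 were tested, with 3 higher, 4 lower and a median of -0.04. Cd200, the ligand of an inhibitory myeloid receptor, was at 12.1 and 13.5 CPM in WT and 23.5 and 23.2 CPM in anti-Act1, a log2 rise of 0.87 (SE 0.08, adjusted p = 1.49e-11) that was larger than that of Cd274. Pvr, which binds TIGIT and CD226, rose by 0.38 and Tnfrsf14, the ligand of BTLA, by 0.22 on the log2 scale. The call of Tnfrsf14 was lost without WT replicate 1 (0.17, adjusted p = 0.0692) and without anti-Act1 replicate 2 (0.20, adjusted p = 0.114). The inhibitory receptors Cd72 (-0.40), Lair1 (-0.35) and Pilra (-0.34) and the checkpoint gene Vsir (-0.18) were lower, and Vsir alone of these lost its call in any alternative, without anti-Act1 replicate 1 (-0.16, adjusted p = 0.0965).

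Of 9 tested genes for other costimulatory ligands and adhesion molecules, 3 rose and 3 fell, with a median of 0.08. Cd40, the receptor by which helper T cells act on macrophages, was at 2.37 and 2.74 CPM in WT and 4.31 and 4.39 CPM in anti-Act1 (0.76, SE 0.17, adjusted p = 6.16e-04). The adhesion ligand Icam1 rose by 0.41 and Tnfsf9, the ligand of 4-1BB, by 0.35 on the log2 scale. Vcam1 (-1.34) and Tnfsf14 (-1.11) fell furthest, and Cd48 was lower by a small amount (-0.17). Icam1 and Vcam1, both adhesion molecules that bind integrins, thus moved in opposite directions. Tnfsf9 lost its call without WT replicate 1 (0.28, adjusted p = 0.0519) and without anti-Act1 replicate 2 (0.22, adjusted p = 0.244). Cd48 lost it without WT replicate 1 (adjusted p = 0.0841), anti-Act1 replicate 1 (adjusted p = 0.0539) or anti-Act1 replicate 2 (adjusted p = 0.292).

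Around CD47 and SIRPα, 11 genes were tested, with none called higher, 3 called lower and a median of -0.10. Thbs1, a secreted ligand of CD47, was the most abundant, at 6565 and 7143 CPM in WT and 5130 and 5356 CPM in anti-Act1 (-0.39, SE 0.05, adjusted p = 3.12e-08). Ptpn6, the phosphatase SHP-1 that SIRPα recruits, was at -0.29 (adjusted p = 2.97e-05) and Itgam, a chain of the phagocytic complement receptor CR3 and a macrophage marker, at -0.31 (adjusted p = 3.96e-06). Ptpn11, the related phosphatase SHP-2 (0.07), and Calr, an eat-me signal (-0.02), did not pass the test.

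Among 8 tested genes of the TIM and galectin list, which also holds Bag6, Hmgb1 and Ceacam1, Lgals3 alone was called. Its change was 0.14 on the log2 scale (adjusted p = 0.0285), and it was called in 6 of 13 alternatives. It was not called without WT replicate 2 (0.10, adjusted p = 0.247) or without either anti-Act1 library (adjusted p = 0.114 and 0.0579), nor with the replicate block (adjusted p = 0.129). The list's median was -0.05. Lgals1 (-0.02) and Lgals8 (-0.08) did not pass the test, so that among the galectins tested the rise of Lgals9 stood beside a smaller and less stable one of Lgals3.

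**Figure D5:**
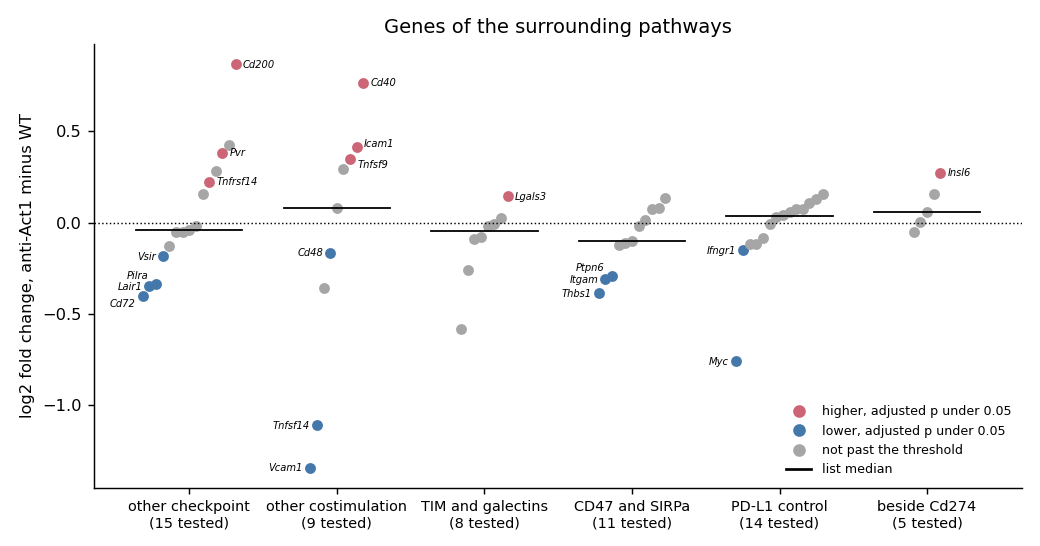
Log2 fold change, anti-Act1 minus WT, of the tested genes of 6 lists around the 10 genes, coloured by the edgeR call, with the list median as a line. The medians lie between -0.10 and 0.08, and Cd200 (0.87), Cd40 (0.76), Vcam1 (-1.34) and Tnfsf14 (-1.11) lie farthest out.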

How the data were processed

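RNA of 4 libraries, 2 WT and 2 anti-Act1, was sequenced by the authors as paired reads and aligned with TopHat. The submitters' processing notes also name Bowtie 0.12.2, HTSeq 0.6.1 and the builds mm8 and mm10 without a role. The authors deposited whole read counts per gene, not normalized, and FPKM. For 10308 of 10308 genes compared, counts over library total and FPKM implied the same gene length in all 4 libraries, within 0.001. This length was not compared with an annotated one. Libraries held 55435063 to 75062945 counts. The paper calls the replicates biological. The 10 genes and all lists were chosen with earlier results of these data known.

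Counts were tested with edgeR 4.0.16 (R 4.3.3) by the quasi-likelihood F test, with TMM, filterByExpr and Benjamini-Hochberg adjustment over 12494 genes. CPM are TMM-scaled, SEs come from the fit, and FPKM was used for levels between genes. The code was tested on simulated data with set changes larger than those of the 10 genes, so that the recovery of small changes was not tested. Alternatives were DESeq2 1.42.0, edgeR with the size factors of DESeq2 or without TMM, the table unfiltered or kept to genes with 10 counts or more in each library, a replicate block, limma 3.58.1 on log2(FPKM + 1) and (FPKM + 0.1) with at least 1 FPKM in 2 libraries, and each library left out. Counts divided by 2 were added after seeing the data, because 66.4 to 68.2% of counts from 1 to 20 were even. Named were the 10 genes, the label checks, the neighbours of Cd274, the markers, and per list up to 3 genes each way with the largest called change and at least 1 CPM. Others in the lists were named after their values were seen. Not given in the sources used here are the annotation and the use of strand. Not every gene of the lists is reported here, and list counts, sums and medians leave out those that are not.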

Additional observations from a re-analysis of the deposited data

How the results depend on the processing

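Cd274, Cd80, Cd86, Cd276 and Havcr2 kept their direction and their side of the threshold in all 13 alternatives. Pdcd1lg2 rested on 25 to 50 reads a library, and each group held 2 libraries. Leaving out 1 library at a time, which leaves 1 group with a lone library assumed to vary like the other group, gave 1671 to 2543 called genes against 2586, and 1 to 4 called members. The lowest gene counts came from dropping an anti-Act1 library, 1671 without replicate 2 and 1712 without replicate 1. In the same settings the log2 fold change ranged from 0.15 to 0.21 for Lgals9, 0.17 to 0.19 for Cd47, -0.18 to -0.14 for Sirpa, -0.21 to 0.00 for Icosl and -0.34 to 0.42 for Pdcd1lg2. Pdcd1lg2 reversed to -0.08 without WT replicate 1 and -0.34 without anti-Act1 replicate 1, and Icosl to 0.0022 without anti-Act1 replicate 1. By FPKM in place of CPM, 5 of 10 genes kept their place in the order of levels. Libraries with the same replicate number share only that number in the labels. Over 12494 genes, the difference between replicates 1 and 2 in WT had a correlation of -0.03 with that in anti-Act1. With the replicate block 2406 genes were called, and Sirpa (-0.16) was no longer among them. The cause of these shifts was not tested.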

Other observations

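The receptors that these ligands meet on T cells were mostly near 0 in the libraries, with Cd28 and Havcr2, the latter given above, as exceptions. Cd28, the receptor of CD80 and CD86, was at 191 and 217 CPM in WT and 194 and 182 CPM in anti-Act1. Its log2 fold change was -0.12 (edgeR, SE 0.06, adjusted p = 0.130). The genes of the CD3 chains of T cells, Cd3d, Cd3e and Cd3g, had 0 to 6 counts in every library. Pdcd1, which encodes PD-1, had 5, 4, 0 and 6 counts, and Ctla4 had 0, 0, 4 and 2.

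Lag3, an inhibitory receptor, had 76 and 110 counts in WT and 27 and 47 in anti-Act1. On the log2 scale it fell by 1.03 (edgeR, SE 0.35, adjusted p = 0.0255), a change not called by DESeq2 (adjusted p = 0.121), without WT replicate 2 (-0.87) or without anti-Act1 replicate 1 (-0.61). Of 9 T cell markers 8 were found, and their sum of 26.3 to 32.1 CPM was mostly Cd4, which was called higher by 0.21 on the log2 scale (adjusted p = 0.0358). Cd4 lost its call under 7 of 13 alternatives, among them leaving out anti-Act1 replicate 2 (0.12, adjusted p = 0.507).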
